A study of Mus musculus with 6 samples.

Results

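The erythroid genes described here are 29 genes that build and instruct the red cell, apart from the hemoglobin genes and the heme enzymes. They were chosen by symbol among 51826 gene rows of the deposited table, and each symbol had 1 gene ID. By usual order of use in red cell development, 8 act early (6 transcription regulators and 2 receptors) and 21 act late (9 membrane and membrane skeleton genes, 4 blood group genes and 8 genes of enzymes, carriers and maturation). The RNA came from mouse bone marrow cells labelled as neutrophils, which had been given microvesicles, small particles that cells shed from their surface. In KD_MV, 3 libraries, the particles came from Hepa1-6 cells, a mouse hepatoma line, in which ezrin had been knocked down. In Ctrl_MV, 3 libraries, they came from wild-type Hepa1-6 cells. Both kinds of donor cells had been kept without glucose, so every neutrophil sample here received particles from starved hepatoma cells, and neutrophils without particles were not analysed here. Strain, age, particle dose and exposure time are not given in the sources used here, and neither is whether replicates came from separate animals. A p-value here therefore weighs the difference between groups against how far libraries within a group differed, and that spread may be technical only.

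Red cells arise in the marrow from progenitors that depend on erythropoietin, whose receptor signals for their survival. GATA1 and KLF1, with partners such as TAL1, FOG1 (the product of Zfpm1) and GFI1B, switch on the genes of the red cell. The later erythroblast assembles a membrane in which band 3, ankyrin, protein 4.2, protein 4.1 and spectrin join the lipid layer to a skeleton beneath it, and after the nucleus is lost the reticulocyte clears its mitochondria. Several of the regulators also serve megakaryocytes, and GATA1 serves eosinophils.

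To show the DNA beside the genes, the 250 bases before the transcription start were taken from RefSeq promoter windows of the GRCm38.p6 build, where 20 of the 29 genes had an entry. The windows were searched on both strands for AGATAA and TGATAA, which GATA factors are known to bind, and for CCNCNCCC, a KLF1 motif. Windows are shown for 4 role groups, in each for the called gene with the highest level (TPM) among those with an entry, and are written on the strand of the gene with every match in capitals. Bpgm lies on the plus strand (chr6:34476106-34476355), Epb41 on the minus strand (chr4:132075314-132075563), Zfpm1 on the plus strand (chr8:122281891-122282140) and Kel on the minus strand (chr6:41704326-41704575), each counted from the start that RefSeq gives.
Bpgm: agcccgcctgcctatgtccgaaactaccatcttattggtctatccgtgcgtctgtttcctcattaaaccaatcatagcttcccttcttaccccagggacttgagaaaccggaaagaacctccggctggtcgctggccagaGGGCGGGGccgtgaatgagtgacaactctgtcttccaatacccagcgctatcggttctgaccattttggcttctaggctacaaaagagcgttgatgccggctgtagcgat
Epb41: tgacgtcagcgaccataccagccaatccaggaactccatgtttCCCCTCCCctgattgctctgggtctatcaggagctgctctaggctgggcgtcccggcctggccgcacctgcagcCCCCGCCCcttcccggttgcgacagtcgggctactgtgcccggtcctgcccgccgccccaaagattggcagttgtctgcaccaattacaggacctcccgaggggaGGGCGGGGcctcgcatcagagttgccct
Zfpm1: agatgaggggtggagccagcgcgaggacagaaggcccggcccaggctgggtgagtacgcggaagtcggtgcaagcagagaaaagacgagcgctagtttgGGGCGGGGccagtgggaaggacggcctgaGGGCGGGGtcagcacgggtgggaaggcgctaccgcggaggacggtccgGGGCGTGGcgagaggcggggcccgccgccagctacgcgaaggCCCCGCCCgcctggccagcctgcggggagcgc
Kel: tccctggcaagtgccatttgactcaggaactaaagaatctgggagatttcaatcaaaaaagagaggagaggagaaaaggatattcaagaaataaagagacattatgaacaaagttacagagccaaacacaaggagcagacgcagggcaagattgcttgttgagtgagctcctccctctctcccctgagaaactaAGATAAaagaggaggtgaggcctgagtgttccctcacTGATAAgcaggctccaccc

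The Kel window held 1 AGATAA and 1 TGATAA match, and the other 3 windows held CCNCNCCC matches only, 4 in Zfpm1, 3 in Epb41 and 1 in Bpgm. A GATA motif was present in 10 of the 20 windows (50%), against 16.6% of all 32851 windows in the RefSeq table. CCNCNCCC was present in 11 of the 20 windows (55%), against 45.9% of all windows. Among genes with a window, a GATA motif was found for 1 of the 3 called higher in KD_MV, 6 of the 11 called lower and 3 of the 6 not called. A match describes these letters and does not show that a factor binds there.

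Facts of the whole series bear on every level below. Total counts ran from 38117403 to 42043434 in KD_MV libraries and from 37346055 to 38826701 in Ctrl_MV libraries. Of 13 neutrophil markers all had counts in every library, summing to between 1759 and 2548 CPM in KD_MV and between 2489 and 2878 CPM in Ctrl_MV, where CPM is the count scaled to library depth with TMM factors. S100a8 and S100a9 made up most of that sum, and the markers moved both ways. Named after their values were seen, Ngp, Elane and Mpo rose (Elane 16.1-fold and Mpo 17.8-fold), and Csf3r, Cxcr2, Mmp9, Retnlg and Camp fell (Retnlg 5.05-fold and Camp 3.76-fold lower in KD_MV). Ly6g, the defining surface marker of mouse neutrophils, was low in both groups and averaged 1.86 CPM in KD_MV and 2.29 CPM in Ctrl_MV. The 4 hemoglobin genes took 1.02 to 1.18% of counts in KD_MV libraries and 8.96 to 10.6% in Ctrl_MV libraries. The median log2 fold change of all tested genes was 0.03, and it was 0.43 with library size as the only scaling, where 78.8% of calls were in the higher direction in place of 52.8%. Differences of that size or less therefore depend on the scaling.

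The late genes of the red cell were mostly lower in neutrophil samples given knockdown vesicles, whereas the early genes moved both ways, as all tested genes did. Of the 21 late genes 14 fell and 0 rose, and of the 8 early genes 3 fell and 3 rose. Over all 29 genes, each of which passed the filter on low counts, 17 fell and 3 rose at an adjusted p under 0.05. Among all 16071 tested genes 52.6% were called, 24.9% lower and 27.8% higher. The share of the 29 genes called lower (58.6%) was thus above that background, and the share called higher (10.3%) was below it. Of the late genes 66.7% were called lower. Of the 8 early genes 37.5% were called in each direction, which with so few genes is near the background. The counts of each list below stand against the same background. The median log2 fold change was -0.94 for late genes and -0.04 for early genes, beside 0.03 for all tested genes. With library size only, 13 genes fell and 5 rose (Gypc of the late genes among them), and the medians were -0.54 for late and 0.37 for early genes, so the early genes' median changed sign with the scaling. The difference between the early and the late median, in which a common scaling shift cancels, was 0.90 and ran from 0.73 to 1.18 over the alternatives. On the authors' TPM, where Tfr2 and Car1 were under the filter, limma called 10 of the other 27 genes lower and 4 higher. Nfe2, Epor, Ermap, Bnip3l, Epb41, Tmod1 and Slc25a37 lost their call there. On log2(TPM + 1) the median of all genes tested was 0.51, so differences of that size or less also depend on this scale. The early and the late median were not tested against each other. In such mixed samples fewer red cell precursors and less RNA per cell cannot be told apart.

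**Figure D1:**
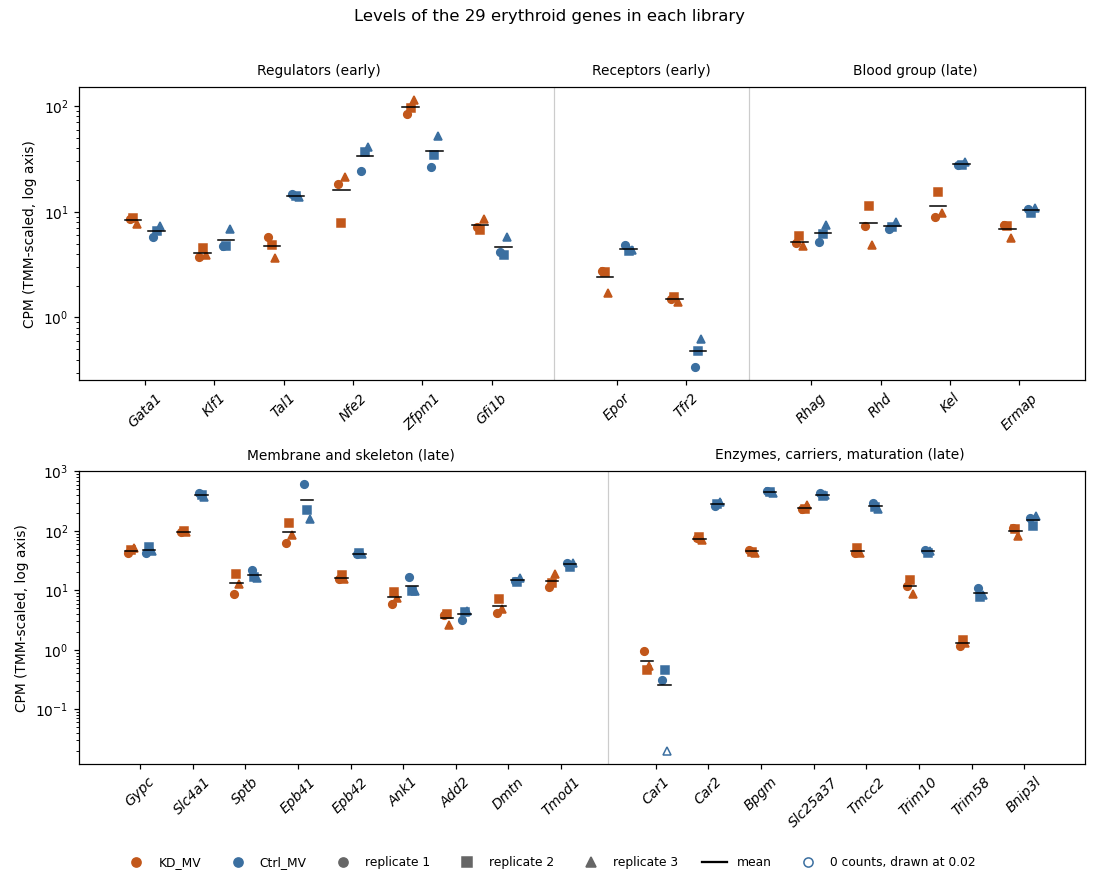
Levels of the 29 genes by library, as TMM-scaled CPM on a log axis, with KD_MV left of Ctrl_MV for each gene, 1 point per library, a bar at the mean of 3 and a hollow point for 0 counts. Bpgm lies between 43.1 and 48.6 CPM in KD_MV and between 435 and 465 CPM in Ctrl_MV, while the Gypc points of the groups overlap.

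Among the transcription regulators 2 rose, 2 fell and 2 did not pass the test. Zfpm1 encodes FOG1, the cofactor through which GATA1 acts. Its levels were 84.1, 95.8 and 113 CPM in KD_MV replicates 1, 2 and 3, against 26.6, 34.7 and 52.2 CPM in Ctrl_MV replicates 1, 2 and 3. All KD_MV libraries were above all Ctrl_MV libraries, and the gene rose by 1.37 ± 0.23 on the log2 scale (SE, adjusted p = 0.00115, edgeR's quasi-likelihood test with Benjamini-Hochberg adjustment, as for every adjusted p here). Gfi1b, a repressor needed for both red cells and platelets, measured 7.24, 6.68 and 8.5 CPM in KD_MV and 4.18, 3.93 and 5.78 CPM in Ctrl_MV. It rose by 0.69 ± 0.19 (adjusted p = 0.014) with no overlap between groups, but the call was lost without Ctrl_MV replicate 1 (adjusted p = 0.0531) or Ctrl_MV replicate 2 (adjusted p = 0.0533).

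Gata1, the central regulator of the lineage (chromosome X, 7959260 to 7978071 in mm10), measured 8.47, 8.68 and 7.71 CPM in KD_MV and 5.76, 6.51 and 7.39 CPM in Ctrl_MV. The KD_MV libraries were above the Ctrl_MV libraries, narrowly so for the closest pair, and the difference of 0.34 ± 0.15 did not pass (adjusted p = 0.0808). It did pass with library size only (0.74, adjusted p = 0.00249) and with limma on the authors' TPM (0.74 on log2(TPM + 1), adjusted p = 0.0014, and 0.84 on log2(TPM + 0.1), adjusted p = 0.00145). Klf1, which drives the hemoglobin and membrane genes of the maturing cell, measured 3.74, 4.55 and 3.94 CPM in KD_MV and 4.74, 4.72 and 6.82 CPM in Ctrl_MV. Its log2 difference of -0.41 ± 0.19 did not pass (adjusted p = 0.105), and with library size only it was -0.01. On log2(TPM + 1) it was 0.14 and did not pass either.

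Tal1 and Nfe2 went the other way from Zfpm1. Tal1, a basic helix-loop-helix factor that forms a complex with GATA1, measured 5.78, 4.82 and 3.62 CPM in KD_MV and 14.7, 14 and 13.7 CPM in Ctrl_MV. It fell by 1.58 ± 0.18 on the log2 scale (adjusted p = 1.25e-04), with groups far apart. Nfe2, a subunit of the NF-E2 factor that also acts in megakaryocytes, measured 18.5, 7.78 and 21.5 CPM in KD_MV and 24.1, 36.5 and 40.7 CPM in Ctrl_MV. The groups did not overlap, and KD_MV replicate 2 stood below the other KD_MV libraries. Nfe2 fell by 1.08 ± 0.34 (adjusted p = 0.0264), and the call was lost without Ctrl_MV replicate 2 (adjusted p = 0.0707), without Ctrl_MV replicate 3 (adjusted p = 0.0845) and with library size only (adjusted p = 0.11).

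The receptors moved in opposite directions. Epor, the erythropoietin receptor, measured 2.78, 2.69 and 1.7 CPM in KD_MV and 4.86, 4.27 and 4.32 CPM in Ctrl_MV. It fell by 0.91 ± 0.22 (adjusted p = 0.00764), a call lost with library size only (adjusted p = 0.0814). Tfr2, a transferrin receptor that senses iron in erythroblasts and in liver, measured 1.5, 1.55 and 1.4 CPM in KD_MV and 0.341, 0.484 and 0.626 CPM in Ctrl_MV. It rose by 1.61 ± 0.28 (adjusted p = 0.00148), on 67, 69 and 67 counts in KD_MV and 11, 16 and 21 counts in Ctrl_MV. Of 10 hepatocyte and hepatoma markers, which the vesicle donors could carry, 6 had any counts, Apob, Serpina1a, Fgb and H19 were at 0, and the sum was 8.21 to 12.3 CPM in KD_MV and 26.8 to 36.9 CPM in Ctrl_MV. Afp made up most of the sum, with a mean of 7.75 CPM in KD_MV and 26.5 CPM in Ctrl_MV, and the part of donor RNA in Tfr2 was not tested.

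Markers of other cells that use these regulators also differed between the groups. Of all tested genes 27.8% were called higher and 24.9% lower. Of 11 megakaryocyte and platelet markers 8 rose and 1 fell, each with counts in every library, and their sum was 168 to 199 CPM in KD_MV and 148 to 190 CPM in Ctrl_MV. The marker that fell, named after its values were seen, was Vwf, with a mean of 35.5 CPM in KD_MV and 94 CPM in Ctrl_MV. Of 13 eosinophil, basophil and mast cell markers, all with counts in every library, 7 rose and 1 fell. Their sum was 447 to 627 CPM in KD_MV and 44.6 to 48.6 CPM in Ctrl_MV. Named after their values were seen, Prg2, Ear1, Epx and Ear2 made up most of the KD_MV sum. Siglecf, Il5ra, Ccr3, Cpa3 and Ms4a2 were not called, and Fcer1a fell. Proliferation markers, used by dividing precursors of any lineage, rose in 7 of 8 cases, with a sum of 1104 to 1219 CPM in KD_MV and 371 to 396 CPM in Ctrl_MV. The 9 monocyte and macrophage markers, all with counts in every library, summed to 777 to 877 CPM in KD_MV and 1128 to 1363 CPM in Ctrl_MV. Of the 8 that were tested 4 rose and 2 fell, with a median of 0.67, and those that fell were Adgre1 and Csf1r, the most abundant of the list. The part of these cells in the levels of Zfpm1, Gfi1b, Gata1 or Tal1 was not tested.

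**Figure D2:**
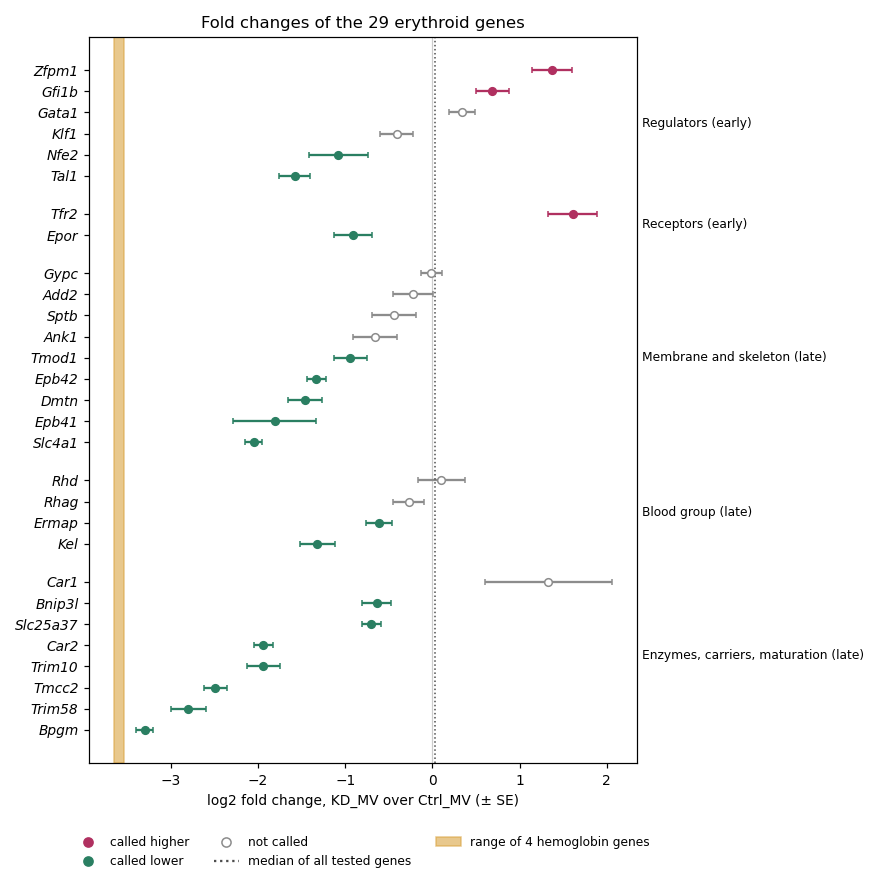
Log2 fold changes of the 29 genes (KD_MV over Ctrl_MV, points with SE) by role group, with a dotted line at the median of all tested genes (0.03) and a band for the 4 hemoglobin genes (-3.65 to -3.54). Filled points passed the test. Bpgm at -3.30 lies nearest the band, and the regulators lie on both sides of 0.

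Of the 9 membrane and membrane skeleton genes 5 fell (55.6%, against 24.9% of all tested genes) and 0 rose, with a median log2 fold change of -0.94. Slc4a1 encodes band 3, the anion exchanger that anchors the skeleton (chromosome 11, 102348824 to 102366203). It measured 94.4, 99.3 and 96.1 CPM in KD_MV and 430, 397 and 372 CPM in Ctrl_MV. The groups lay far apart with little spread inside each, and Slc4a1 fell by 2.05 ± 0.10 on the log2 scale (adjusted p = 1.77e-06). Epb42, protein 4.2, which binds band 3, measured 15.6, 18.1 and 15.4 CPM in KD_MV and 40.8, 42.5 and 40.6 CPM in Ctrl_MV. It fell by 1.33 ± 0.11 (adjusted p = 2.49e-05).

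Ank1 and Sptb, which encode ankyrin and beta-spectrin, the next links in the same chain, did not pass the test. Ank1 measured 5.89, 9.33 and 7.54 CPM in KD_MV and 16.5, 9.81 and 9.68 CPM in Ctrl_MV. Its log2 difference of -0.66 ± 0.25 lay at the threshold (adjusted p = 0.05, just above it before rounding), passed without KD_MV replicate 2 (adjusted p = 0.0353), Ctrl_MV replicate 2 (adjusted p = 0.0459) or Ctrl_MV replicate 3 (adjusted p = 0.0429), and shrank to -0.36 without Ctrl_MV replicate 1. Sptb measured 8.76, 18.6 and 12.9 CPM in KD_MV and 22, 16.8 and 16 CPM in Ctrl_MV. The groups overlapped through KD_MV replicate 2, and the difference of -0.44 ± 0.25 (adjusted p = 0.174) became -0.75 and passed (adjusted p = 0.0241) without that library. On the authors' TPM scale both genes had the other sign. The ratio of count to TPM follows the length used for the gene. On the log2 scale it differed between groups by -0.25 for Sptb and -0.21 for Ank1. The median of all genes tested on log2(TPM + 1) was itself 0.51. Klf1, Gypc and Rhag also changed sign there, with ratios that differed by -0.00, -0.02 and -0.01. The part of length in the changes of sign was not tested.

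Epb41, protein 4.1, which ties spectrin to actin, varied more within Ctrl_MV than any other gene of the 29 that had counts in every library. It measured 62.2, 135 and 85.2 CPM in KD_MV and 606, 226 and 158 CPM in Ctrl_MV. All Ctrl_MV libraries were above all KD_MV libraries, but the highest Ctrl_MV library was 3.84 times the lowest. Epb41 fell by 1.81 ± 0.48 on the log2 scale (adjusted p = 0.0122), and by 1.03 without Ctrl_MV replicate 1 (adjusted p = 0.0321). The call was lost on the authors' TPM (-1.08, adjusted p = 0.0819 by limma on log2(TPM + 1)). Dmtn, dematin, an actin-bundling protein, averaged 5.36 ± 1.56 CPM in KD_MV and 14.8 ± 1.15 CPM in Ctrl_MV (SD, n = 3 each), and it fell by 1.46 ± 0.20 on the log2 scale.

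Tmod1, which caps the pointed ends of actin in the skeleton, averaged 14.5 ± 4.03 CPM in KD_MV and 27.8 ± 2.36 CPM in Ctrl_MV (SD, n = 3 each). It fell by 0.94 ± 0.19 (adjusted p = 0.00315), but 32.6% of its exonic bases also lie in exons of Tstd2 on the other strand, so its count is uncertain. On the authors' TPM the call was lost (-0.37, adjusted p = 0.0912 by limma on log2(TPM + 1)). Add2, beta-adducin, averaged 3.45 CPM in KD_MV and 4.02 CPM in Ctrl_MV with overlapping groups, and did not pass (-0.22 ± 0.23, adjusted p = 0.437). Gypc, glycophorin C, which other blood cells also make, measured 41.8, 47 and 51.1 CPM in KD_MV and 42.2, 53.3 and 45.4 CPM in Ctrl_MV. The groups overlapped fully, the difference was -0.01 ± 0.12 (adjusted p = 0.951), and with library size only it was 0.39 and passed in the higher direction (adjusted p = 0.0264).

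**Figure D3:**
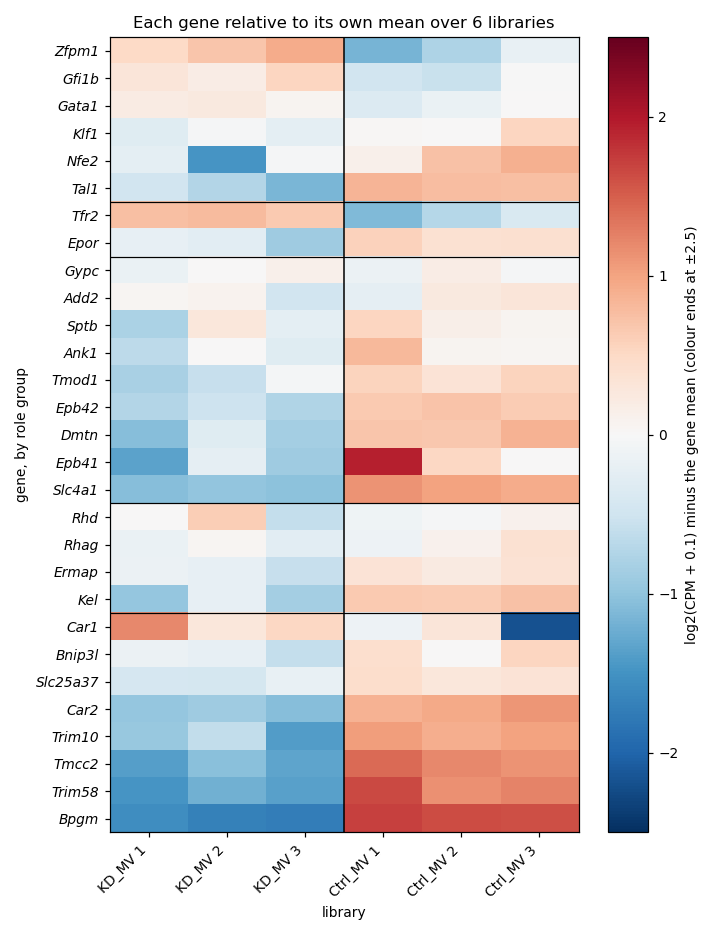
Each gene relative to its own mean over the 6 libraries, as log2(CPM + 0.1) minus that mean, with KD_MV libraries left of Ctrl_MV libraries and genes in role groups. Bpgm, Trim58, Tmcc2 and Slc4a1 differ evenly between groups, while Epb41 is highest in Ctrl_MV replicate 1 (606 CPM) and Nfe2 lowest in KD_MV replicate 2 (7.78 CPM).

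Within KD_MV, replicate 2 held the highest level for 17 of the 29 genes and for 7 of the 9 membrane and skeleton genes. Within Ctrl_MV, replicate 1 was highest for 11 genes and replicate 3 for 15. Without KD_MV replicate 2 the count was 19 lower and 3 higher, and without Ctrl_MV replicate 1 it was 17 lower and 2 higher.

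The blood group genes split evenly, with 2 lower (50%, against 24.9% of all tested genes) and 2 not called. Kel, the Kell metalloprotease (chromosome 6, 41686330 to 41704339), measured 9.01, 15.5 and 9.78 CPM in KD_MV and 27.9, 27.8 and 29.6 CPM in Ctrl_MV. It fell by 1.32 ± 0.20 on the log2 scale (adjusted p = 6.36e-04), and KD_MV replicate 2 was nearest to Ctrl_MV. Ermap, the Scianna antigen, measured 7.57, 7.31 and 5.63 CPM in KD_MV and 10.6, 9.81 and 10.8 CPM in Ctrl_MV. It fell by 0.61 ± 0.15 (adjusted p = 0.00919), a call lost with library size only (-0.20, adjusted p = 0.294).

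Rhag and Rhd form the Rh complex at the membrane, beside band 3. Rhag measured 5.04, 5.92 and 4.73 CPM in KD_MV and 5.23, 6.17 and 7.48 CPM in Ctrl_MV, and the difference of -0.27 ± 0.18 did not pass (adjusted p = 0.239). Its sign changed with library size as the only scaling (0.14) and on log2(TPM + 1) (0.25), and neither difference passed. Rhd measured 7.4, 11.3 and 4.84 CPM in KD_MV and 6.84, 7.17 and 7.93 CPM in Ctrl_MV. The KD_MV libraries lay on both sides of the Ctrl_MV libraries (0.10 ± 0.27, adjusted p = 0.785). Without KD_MV replicate 2 the Rhd difference was -0.26 and did not pass.

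Of the 8 genes of enzymes, carriers and maturation 7 fell (87.5%, against 24.9% of all tested genes) and 0 rose, with a median log2 fold change of -1.94. Bpgm makes 2,3-bisphosphoglycerate, the red cell compound that lowers the oxygen affinity of hemoglobin (chromosome 6, 34476207 to 34505613). It measured 48.6, 44.2 and 43.1 CPM in KD_MV and 465, 443 and 435 CPM in Ctrl_MV. That was 9.88-fold lower in KD_MV, or -3.30 ± 0.10 on the log2 scale (adjusted p = 2.69e-07), and only 0.473% of tested genes had a lower fold change. Trim58, a ubiquitin ligase that acts at nuclear expulsion in mouse erythroblasts, measured 1.17, 1.44 and 1.28 CPM in KD_MV and 11.1, 7.72 and 8.28 CPM in Ctrl_MV. It fell by 2.80 ± 0.20 (adjusted p = 1.21e-05).

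Tmcc2, a transmembrane protein gene that is strongly used in late erythroblasts, measured 41.7, 52.2 and 43.2 CPM in KD_MV and 289, 248 and 235 CPM in Ctrl_MV. It fell by 2.49 ± 0.13 (adjusted p = 2.61e-06). Trim10, a ubiquitin ligase family gene of terminal red cell maturation in mouse, measured 11.9, 15 and 8.63 CPM in KD_MV and 47.4, 42.8 and 45.8 CPM in Ctrl_MV. It fell by 1.94 ± 0.19 (adjusted p = 5.62e-05), and for both genes the groups were well separated.

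The carbonic anhydrase genes of the list differed from each other. Car2, the abundant fast enzyme that hydrates carbon dioxide, measured 74.9, 78.8 and 69.7 CPM in KD_MV and 266, 280 and 312 CPM in Ctrl_MV. It fell by 1.94 ± 0.11 on the log2 scale (adjusted p = 2.97e-06). Car1, carbonic anhydrase 1, had 42, 20 and 26 counts in KD_MV and 10, 15 and 0 counts in Ctrl_MV. The groups overlapped in CPM, since KD_MV replicate 2 lay just under Ctrl_MV replicate 2, and the difference of 1.33 ± 0.73 did not pass (adjusted p = 0.156).

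Slc25a37 and Bnip3l had the smallest changes among the called genes of this role group. Other cells also use both, as they do Bpgm and Car2, which fell further. Slc25a37 encodes mitoferrin, the carrier that brings iron into mitochondria, and measured 234, 231 and 275 CPM in KD_MV and 428, 380 and 397 CPM in Ctrl_MV. It fell by 0.70 ± 0.11 (adjusted p = 6.68e-04), a call lost on the authors' TPM (log2(TPM + 1) difference -0.15, adjusted p = 0.267 by limma). Bnip3l encodes NIX, the receptor that marks reticulocyte mitochondria for removal. It measured 111, 106 and 80.9 CPM in KD_MV and 165, 123 and 177 CPM in Ctrl_MV, and fell by 0.64 ± 0.17 (adjusted p = 0.0103), a call lost with library size only (-0.24, adjusted p = 0.244). Its ratio of count to TPM differed between groups by 0.43 on the log2 scale.

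Per transcript length, in the authors' TPM, the order of levels among the 29 genes also differed between groups. In KD_MV the highest were Slc25a37 (89.3 ± 8.88 TPM), Car2 (81.9 ± 5.94), Bnip3l (68.9 ± 3.39) and Zfpm1 (57.4 ± 9.1), followed by Bpgm at 44 ± 5.36 TPM (SD, n = 3), where the top pair differed by less than the SD of Slc25a37. Slc4a1 was at 41.8 ± 2.05 TPM in KD_MV. In Ctrl_MV the highest was Bpgm at 278 ± 8.39 TPM, then Car2 at 210 ± 12.2 and Slc4a1 at 117 ± 12.4 TPM, and Bnip3l, Slc25a37, Tmcc2 and Epb41 followed at 91.8 to 101 TPM without differing beyond their spread. Zfpm1 was at 15.3 ± 4.75 TPM in Ctrl_MV. Car1 was the lowest in KD_MV, at 1.02 ± 0.375 TPM, against 0.27 ± 0.241 TPM in Ctrl_MV. Tfr2 was at 1.58 ± 0.266 TPM in KD_MV and was the lowest in Ctrl_MV, at 0.239 ± 0.0932 TPM.

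The fall of the late genes was set beside that of the hemoglobin genes, which encode the main product of red cell precursors. Whether the RNA of both sets came from the same cells was not tested. The 4 hemoglobin genes fell, with log2 fold changes of -3.65 to -3.54, and Alas2, the first enzyme of erythroid heme synthesis, fell by 3.76 ± 0.15. None of the 29 genes fell as far (0 of 29). Bpgm, Trim58 and Tmcc2 came closest, whereas Slc4a1 fell by 2.05, Car2 by 1.94 and Epb42 and Kel by 1.33 and 1.32. Of the 15 genes known among blood cells largely from red cell precursors 8 fell and 0 rose (median -0.66). Of the 14 that other blood cells, platelets or liver also use 9 fell and 3 rose (median -0.82). Over all tested genes 24.9% were called lower and 27.8% higher.

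Other red cell genes were taken from lists of regulators, membrane genes and late genes, of which genes with the smallest p are named. Of 16 other erythroid regulators 6 rose and 6 fell (37.5% each, against 27.8% higher and 24.9% lower of all tested genes). Among them Bcl11a, the repressor of fetal globin genes that B cells also use, rose by 1.71 ± 0.12, while Jak2, the kinase of the erythropoietin receptor, fell by 0.74 ± 0.10 and Foxo3, a factor of late erythroblasts, fell by 0.78 ± 0.11. The 9 B-lineage markers, all with counts in every library, summed to 1804 to 1924 CPM in KD_MV and 878 to 1087 CPM in Ctrl_MV (6 rose and 1 fell), and their part in Bcl11a was not tested. Of 14 other red cell membrane genes 7 fell (50%) and 3 rose (21.4%). Tspo2, an erythroid sterol-binding membrane protein, averaged 5.06 CPM in KD_MV and 38.6 CPM in Ctrl_MV (-2.93 ± 0.12). Slc29a1, a nucleoside transporter of many cells, rose by 1.73 ± 0.15.

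Of 12 other late red cell genes 11 were tested, of which 9 fell and 0 rose. Ypel4 fell by 2.58 ± 0.13 on the log2 scale and Gclm, a glutathione synthesis gene of many cells, by 1.35 ± 0.14. The median was -0.64 for this list, -0.75 for the other membrane genes and -0.10 for the other regulators.

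**Figure D4:**
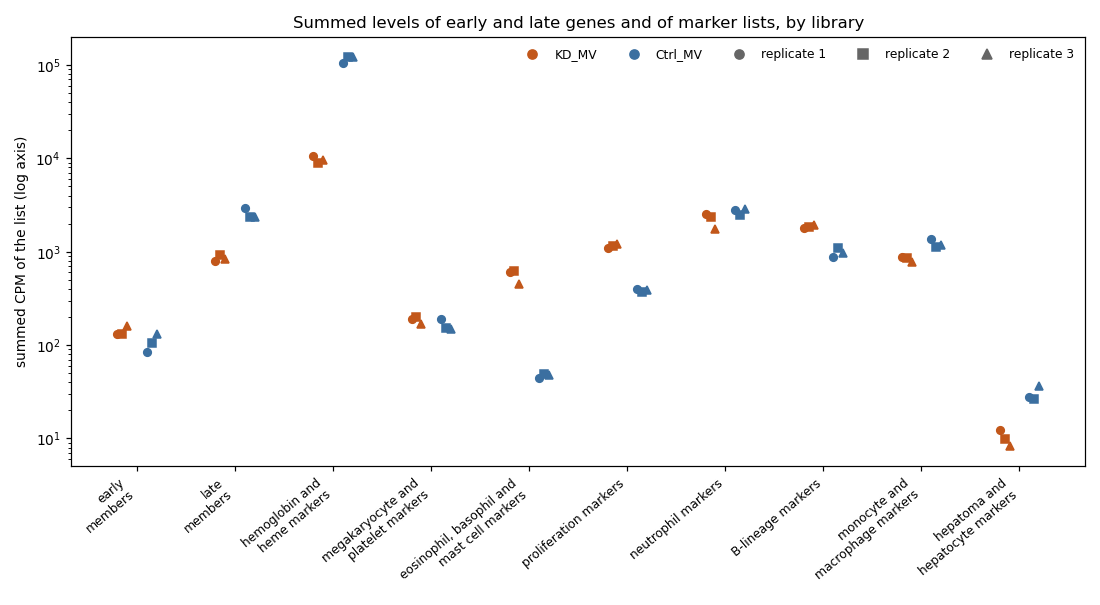
Summed CPM of the early genes, the late genes and the marker lists in each library, on a log axis, with KD_MV left of Ctrl_MV and 1 point per library. The late genes sum to 801 to 921 CPM in KD_MV and 2358 to 2926 CPM in Ctrl_MV, and the early genes to 132 to 161 CPM in KD_MV and 85.2 to 132 CPM in Ctrl_MV.

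Summed over the late genes, levels were 801 to 921 CPM in KD_MV and 2358 to 2926 CPM in Ctrl_MV, which did not overlap. For the early genes the sums were 132 to 161 CPM in KD_MV and 85.2 to 132 CPM in Ctrl_MV, and Zfpm1 made up most of the sum in KD_MV. Within a library, where scaling cancels, the median late gene exceeded the median early gene by 0.79, 1.44 and 1.21 on the log2 CPM scale in KD_MV replicates 1, 2 and 3, and by 2.44, 2.32 and 2.05 in Ctrl_MV replicates 1, 2 and 3. The late genes were thus closer to the early genes in every KD_MV library than in any Ctrl_MV library, a description of lists whose genes differ in length.

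**Figure D5:**
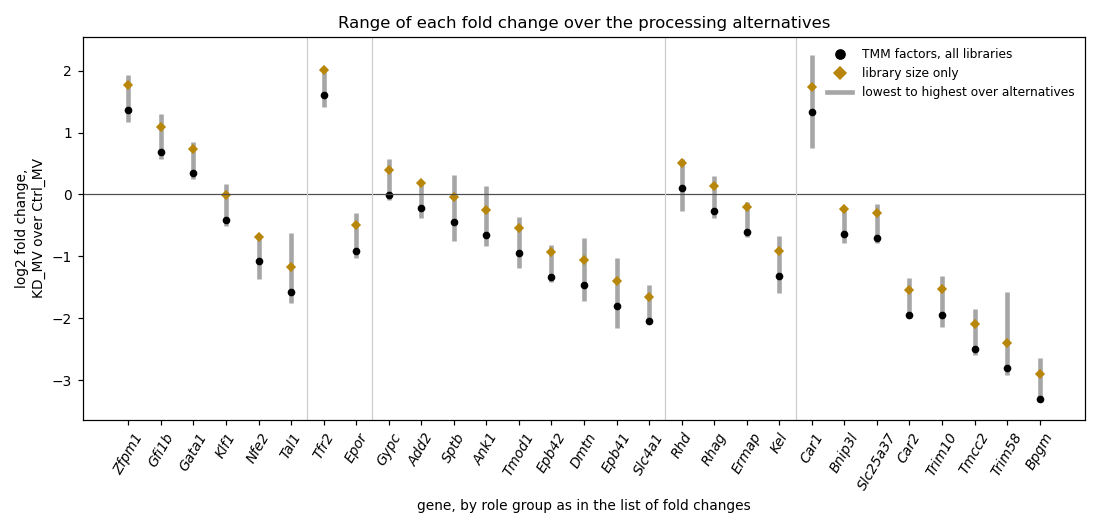
Log2 fold change of each gene (KD_MV over Ctrl_MV) with TMM factors (circles), with library size only (diamonds) and its lowest to highest value over the alternatives (grey bars). Bpgm stays between -3.36 and -2.64 and Zfpm1 between 1.17 and 1.93, while the bar of Gypc crosses 0.

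Of the 20 genes called, 12 kept their call and direction under every other scaling, filter and tool, with each library left out and with the replicate block, wherever they were tested. Stricter thresholds were not part of that count. These were Zfpm1 and Tfr2 among those that rose, and Tal1, Slc4a1, Epb42, Dmtn, Kel, Car2, Bpgm, Tmcc2, Trim10 and Trim58 among those that fell. Every KD_MV library was below every Ctrl_MV library in 19 of the 29 genes, against 29.3% of all tested genes, and above in 4, against 32.0% of all tested genes.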

How the data were processed

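Libraries were made from total RNA with a stranded mRNA kit, per the labels. The authors deposited counts, TPM and FPKM per gene and library, per the file headers. Trim Galore, Subread, featureCounts and mm10 are named in the submitters' processing notes, while versions and the strand setting are not given in the sources used here, and reads of overlapping opposite genes may be shared. The deposited FPKM was not used. Genes were kept by filterByExpr (minimum count 10, minimum total 15). For these 16071 genes edgeR 4.0.16 (R 4.3.3) fitted the deposited counts on group with TMM factors, and quasi-likelihood F-tests were adjusted by Benjamini-Hochberg at 0.05. Dividing the size of a log2 fold change by the root of its F gave the standard error. All 29 genes are named, with those of the 3 of smallest p from each other erythroid list that are reported here. The genes and lists were chosen with earlier results of these data known. Positions equalled GENCODE M21 for 28 of the 29 genes. Alternatives were other scalings and filters, limma-voom, limma 3.58.1 on log2 of deposited TPM (mean TPM of at least 1), DESeq2 1.42.0, other thresholds, left-out hemoglobin or mitochondrial genes, left-out libraries and a replicate block. Even values made up 54.7 to 57.3% of counts from 10 to 49, so halved counts were added after seeing the data. The main edgeR fit was run on simulated counts in which few genes changed, equally often in each direction. That run does not test the scaling in data where 52.6% of genes were called, and the other fits were not simulated. Replicates differed beyond sampling noise (chi-square per degree of freedom 20.3 to 97.8).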

Additional observations from a re-analysis of the deposited data

How the results depend on the processing

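The counts of 17 lower and 3 higher among the 29 genes stayed within 1.5 times in the alternatives other than those given here. With library size only, 5 were higher, while calls among all tested genes were 2010 lower and 7455 higher in place of 3995 and 4464. Tested against a fold of 1.5, 11 of the 29 were lower, and all tested genes gave 1705 lower and 2180 higher. On log2(TPM + 1) 10 of the 29 were lower, with 1228 lower and 7719 higher in all, and on log2(TPM + 0.1) 10, with 1221 and 7690. The cause of these shifts was not tested. The late median of -0.94 became -0.54 with library size only, -1.14 with CPM of at least 1 in 3 libraries (Car1 left out), -0.58 on log2(TPM + 1) and -0.61 on log2(TPM + 0.1), and ran from -1.19 to -0.79 with each library left out. The early median of -0.04 became 0.37 with library size only, 0.14 on log2(TPM + 1) and 0.17 on log2(TPM + 0.1), and ran from -0.12 to 0.11 with each library left out. Leaving out a library gave 17 to 19 lower and 2 to 3 higher. Gypc turned to called higher with library size only (0.39), on log2(TPM + 1) (0.55) and on log2(TPM + 0.1) (0.57). Of 546 values for single genes, 508 stayed on the same side of the threshold without a called change of direction. Same-numbered replicates did not deviate together (r from -0.0788 to -0.00668). With 3 libraries per group this cannot show whether numbers pair libraries, and the labels do not say. A replicate block gave 17 lower and 3 higher of the 29 and 3676 lower and 4123 higher in all. At the lowest levels, Car1 (0 to 42 counts) and Tfr2 (11 to 69), depth limits precision.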
